A study of Mus musculus with 12 samples.

Results

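Retinas of mice labelled Casp1 KO were compared with retinas of WT mice that had both been kept in normoxia, that is, in room air without exposure to oxygen. The comparison rests on 6 of the 12 libraries of the series, 3 labelled Casp1 KO normoxia and 3 labelled WT normoxia, chosen by their genotype and treatment labels. The other 6 libraries came from the same genotypes in oxygen-induced retinopathy (OIR), in which pups are kept in high oxygen and then returned to room air. Their retinas were taken 3 days after that return. WT stands for C57BL/6. The study's methods place the C57BL/6 pups at postnatal day 15, but the age of the Casp1 KO pups, the kind of Casp1 allele, its strain background, the sex and the number of the pups behind each library are not given in the sources used here. The labels do not say that the 3 libraries of a group came from separate litters or animals, so the p-values measure the spread between these libraries.

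Caspase-1 is the protease that inflammasomes activate. These are complexes of a sensor such as NLRP3, the adaptor ASC and pro-caspase-1, and once active the enzyme matures interleukin-1β and interleukin-18 and cleaves gasdermin D, which forms pores in the cell membrane. In nervous tissue caspase-1 is best known from microglia and infiltrating myeloid cells. The neural retina itself consists of rods, cones, bipolar, horizontal, amacrine and ganglion cells and of Müller glia, which span its depth, while the myelin on ganglion cell axons normally begins behind the eye in the mouse.

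RNA was read from the 3′ ends of transcripts, and the values are counts of reads per gene or CPM, which are counts divided by the size of the library and scaled by trimmed means (TMM). WT normoxia replicate 2 held 22815830 reads and the other 5 libraries between 3391203 and 5631795. At these depths 3 reads, the upper limit that a count of 0 allows, correspond to 0.131 to 0.885 CPM, for counting error only. The spread of the log2 difference between 2 libraries, taken over 7224 genes, was 0.265 to 0.294 within a group and 0.295 to 0.344 between the groups.

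The targeted gene went against its label. Casp1 (chr9:5298517-5307281, GRCm38.p6) had 2, 0 and 1 reads in the WT normoxia libraries and 45, 14 and 10 reads in the libraries labelled Casp1 KO. These counts equal 0.190 ± 0.178 CPM in WT and 4.90 ± 2.97 CPM in Casp1 KO (SD, n = 3 each). All 3 libraries labelled KO were above all 3 WT libraries, and the pooled reads gave a ratio of 58.1 with a 95% counting interval of 19.1 to 289. The fitted log2 fold change was 5.24 (SE 1.05, adjusted p = 0.00257, edgeR quasi-likelihood test), and without Casp1 KO replicate 1, which holds 45 of the 69 reads, the adjusted p was 0.150. An exact permutation test of the CPM gave p = 0.1 (two-sided), the smallest that 20 arrangements of 3 against 3 libraries can give. In OIR the WT libraries had 0, 1 and 3 Casp1 reads and those labelled KO 22, 19 and 16, so the libraries split by genotype label in the same way. The OIR fit did not pass, with a log2 fold change of 3.85 (SE 0.87, adjusted p = 0.147, edgeR). The permutation test again gave its smallest p of 0.1. A 3′ read outside the altered part of the gene says nothing about the protein, and which part of Casp1 the allele alters is not given. An exchange of the WT and KO labels, another mouse line and an allele that leaves 3′ reads cannot be told apart here, and an exchange would turn the sign of every difference given below. Because of this the groups are called by their labels throughout, and no direction below is to be read as the effect of a verified loss of Casp1.

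**Figure D1:**
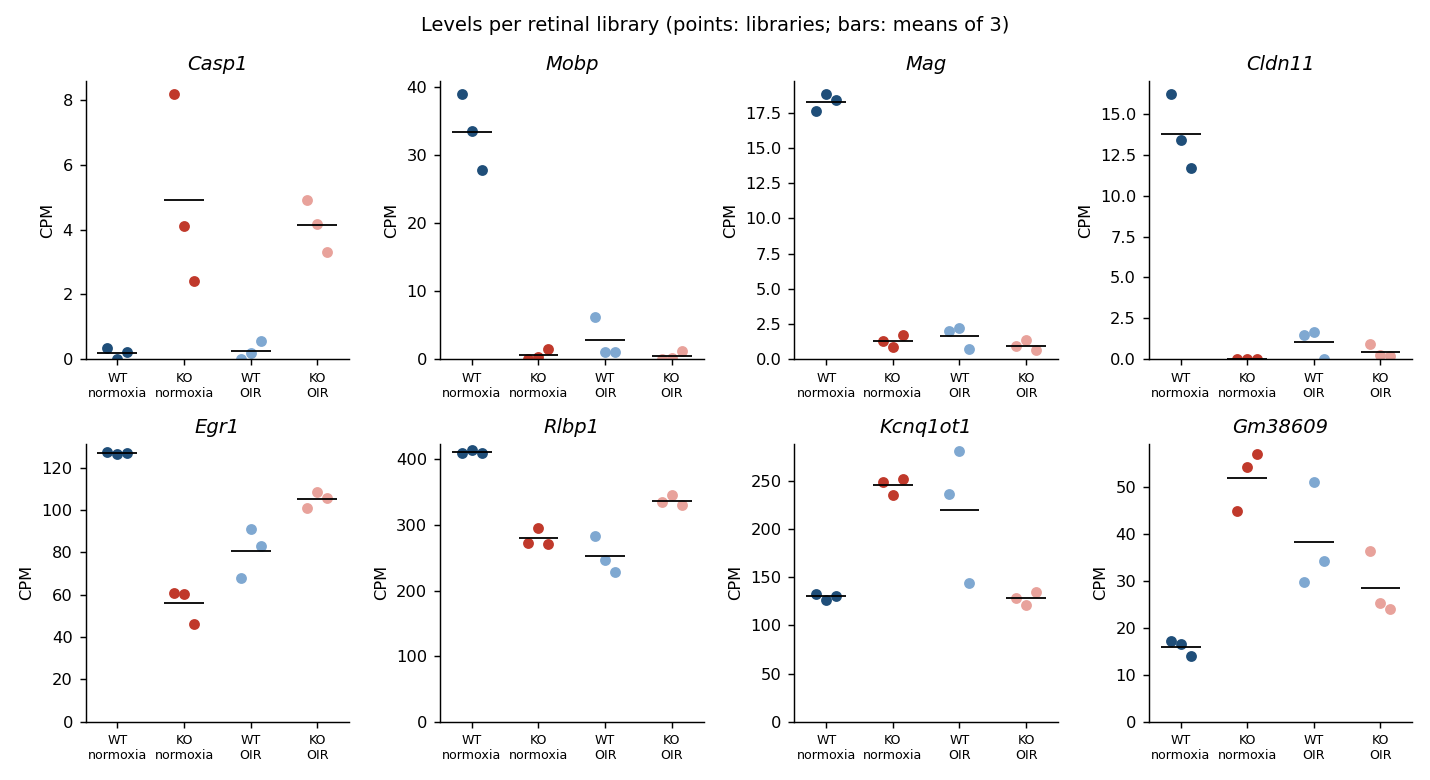
CPM of 8 genes in each of the 12 retinal libraries, with a linear axis from 0 in each panel. Points are libraries and bars are the means of 3. Casp1 lies at or below 0.547 CPM in every WT library, Mobp, Mag and Cldn11 are high in WT normoxia alone, and Egr1, Rlbp1, Kcnq1ot1 and Gm38609 separate the genotypes in normoxia with other orders in OIR.

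A region that differs between mouse lines can surround a modified gene, so the genes beside Casp1 were listed. Within 10 Mb on either side 36 genes were tested and 2 passed, Casp1 itself and Gria4, or 5.56% beside 1.31% of all genes tested. The share depends on the window, since 2 genes also passed within 2 Mb (18.2%) and within 20 Mb (2.06%). Casp1 was called before and lies in every window, so these shares do not measure the genes beside it. Among those, Gria4 alone was called. Gria4, a subunit of AMPA-type glutamate receptors, lies 0.696 Mb from Casp1. It had 98.9, 95.1 and 98.2 CPM in WT and 68.4, 72.9 and 57.4 CPM in Casp1 KO, a log2 fold change of -0.56 (SE 0.13, adjusted p = 0.0109, edgeR). Without WT replicate 1, WT replicate 3 or Casp1 KO replicate 3 its adjusted p was 0.0586, 0.0599 and 0.154, and with the spread estimated from all 12 libraries 0.191. Pdgfd, the next tested gene on the other side, had a log2 fold change of -1.57 with an adjusted p of 0.352. Of the autosomes and X, the share of genes called was lowest on chromosome 5 (0.492%) and highest on chromosome 14 (2.76%), with 1.25% on chromosome 9.

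**Figure D2:**
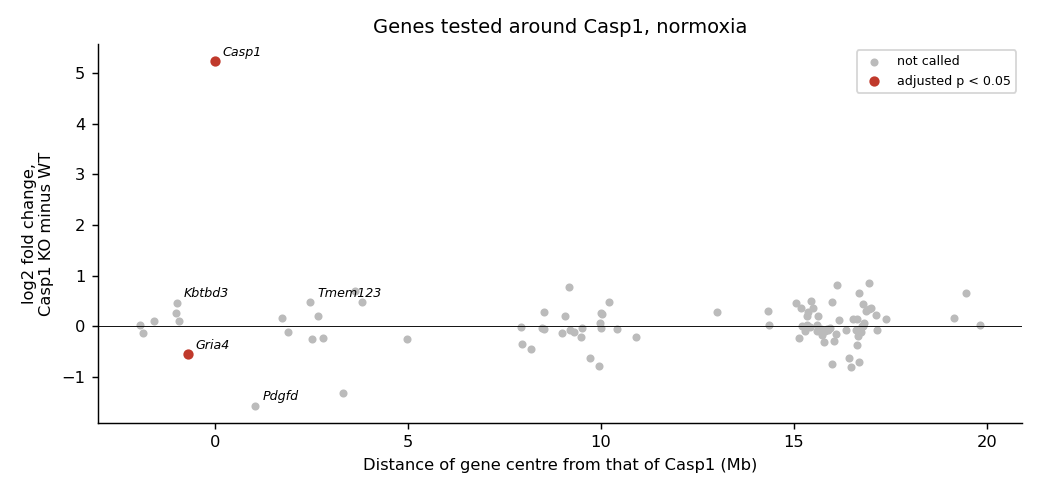
Log2 fold change (Casp1 KO minus WT, normoxia) of the genes tested within 20 Mb of Casp1, against the distance between gene centres in Mb. Red points passed an adjusted p of 0.05, and Casp1 and Gria4 are the 2 that did among 97 genes.

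Across the genome 13387 of 35976 listed genes had enough reads to be tested, and 175 of them (1.31%) differed between the genotypes at an adjusted p under 0.05. In the libraries labelled Casp1 KO 86 were higher (0.642% of those tested) and 89 were lower (0.665%). Most differences were small, with a median absolute log2 fold change of 0.51 among the 175, and 37 reached an absolute value of 1, of which 22 were higher and 15 lower. In 168 of the 175 genes the 3 libraries of one group all lay above the 3 of the other, an arrangement found in 16.9% of all genes tested. The 175 were chosen by p-value from these same libraries, so their separation is no added support. The count of 175 fell to 111 without WT replicate 3, to 106 without Casp1 KO replicate 2 and to 99 without Casp1 KO replicate 3. With the spread estimated from all 12 libraries it was 56, and 43 of the 81 genes chosen for description lost their call. The plot of log2 fold change against level shows that the lowest values belong to a few genes of myelin, and the highest to Casp1 and a few weakly expressed transcripts.

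**Figure D3:**
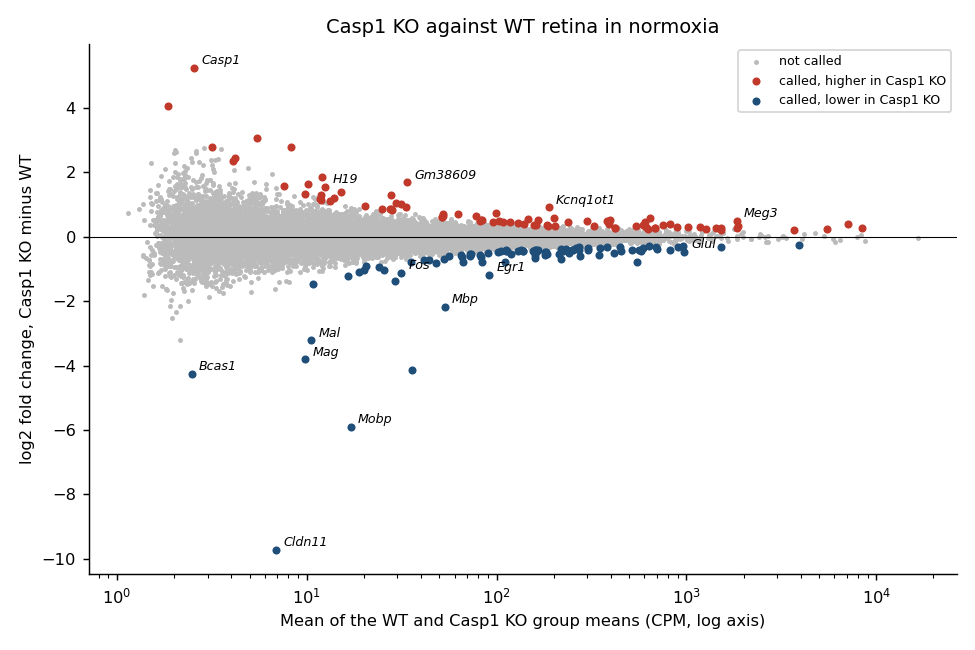
Log2 fold change (Casp1 KO minus WT) of each gene tested in normoxia against its mean CPM, on a log axis. Grey genes were not called, and red (86) and blue (89) genes were higher and lower in Casp1 KO at an adjusted p under 0.05. Cldn11 had no read in Casp1 KO, so its plotted value depends on the prior count of the fit and is no measure of size.

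Genes of oligodendrocytes, the cells that make myelin, held the lowest fitted values. Of 14 genes in this list 9 were tested, 7 were called lower, none was called higher, and the median log2 fold change was -3.21 against 0.00 for all genes. The share called lower was 0.665% over all genes tested. Summed over the 14 genes the level was 218 to 253 CPM in the WT libraries and 51.4 to 65.0 CPM in those labelled Casp1 KO. Less RNA per cell and fewer cells of a type cannot be told apart in libraries of whole tissue. To let upstream sequences of these co-varying genes be compared, the 200 bases from 250 to 51 bases before the RefSeq start (GRCm38.p6) are given for 4 of the 7 called members, each 5′ to 3′ on the strand of its gene. No window is given for Mbp, Mag and Bcas1, so the matches below do not describe all called members. Mobp lies on the plus strand of chr9:120149492-120149691, Cnp on the plus strand of chr11:100574689-100574888, Cldn11 on the plus strand of chr3:31149670-31149869 and Mal on the minus strand of chr2:127656746-127656945. Capitals mark ACAAAG or ACAATG, cores bound by SOX proteins such as SOX10, and CTGGCAC or CTGGTAC, cores of the myelin regulatory factor MYRF, searched on both strands.
Mobp: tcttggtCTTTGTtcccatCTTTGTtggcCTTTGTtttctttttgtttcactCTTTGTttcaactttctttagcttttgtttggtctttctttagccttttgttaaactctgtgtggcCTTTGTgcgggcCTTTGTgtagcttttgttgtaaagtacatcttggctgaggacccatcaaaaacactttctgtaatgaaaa
Cnp: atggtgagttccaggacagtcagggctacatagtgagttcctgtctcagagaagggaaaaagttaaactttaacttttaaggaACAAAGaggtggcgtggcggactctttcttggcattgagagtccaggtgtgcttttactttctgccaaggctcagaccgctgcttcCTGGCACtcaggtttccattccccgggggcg
Cldn11: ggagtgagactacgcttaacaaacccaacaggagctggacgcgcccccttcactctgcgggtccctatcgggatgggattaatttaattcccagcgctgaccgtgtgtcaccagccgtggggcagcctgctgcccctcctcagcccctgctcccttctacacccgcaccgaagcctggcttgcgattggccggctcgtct
Mal: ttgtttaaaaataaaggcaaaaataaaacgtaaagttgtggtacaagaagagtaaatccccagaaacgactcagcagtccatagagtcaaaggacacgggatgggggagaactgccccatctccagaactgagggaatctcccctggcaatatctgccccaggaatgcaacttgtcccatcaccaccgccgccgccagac
The Mobp window held 6 matches to the SOX cores, all read on the opposite strand and none overlapping another, the Cnp window held 1 match to a SOX core and 1 to a MYRF core, and neither the Cldn11 nor the Mal window held either. Of 32851 RefSeq windows of the same length 21.2% held a SOX core and 4.83% a MYRF core. A match describes letters and is not a site of binding.

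Mobp, a small basic protein of compact myelin whose upstream window is given above, had 39.0, 33.5 and 27.8 CPM in WT against 0, 0.294 and 1.45 CPM in Casp1 KO. It fell by 5.91 on the log2 scale (SE 0.44, adjusted p = 1.44e-12, edgeR), and the groups lay far apart. Mbp, which joins the inner faces of the myelin membrane, kept more of its level, with 96.6, 80.1 and 85.2 CPM in WT and 18.9, 22.05 and 17.1 CPM in Casp1 KO (log2 fold change -2.17, SE 0.16). The Mbp locus also carries transcripts that do not encode myelin protein, and 3′ reads do not separate them. Mag, an adhesion molecule between myelin and axon, had 17.6, 18.9 and 18.4 CPM in WT and 1.27, 0.882 and 1.69 CPM in Casp1 KO.

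Cldn11, the claudin of tight junctions between myelin turns, had 450 reads in the WT libraries and 0 in all 3 libraries labelled Casp1 KO. Set against a floor of 3 reads over the whole group, it was at least 59.3-fold lower. Mal, a proteolipid of myelin membranes that lies at chr2:127633226-127656695, had 20.98, 17.4 and 18.9 CPM in WT and 2.91, 2.06 and 0.966 CPM in Casp1 KO (log2 fold change -3.21, SE 0.37). The other 2 called members were less secure. Bcas1, a marker of oligodendrocytes that are starting to myelinate, had 178 reads in WT and 3 in Casp1 KO, a ratio of 23.5 with a counting interval of 7.90 to 115, and its adjusted p of 0.00680 became 0.0910 without WT replicate 2, 0.0684 without Casp1 KO replicate 1 and 0.0707 without Casp1 KO replicate 2. Cnp, an enzyme of uncompacted myelin, had 34.0, 30.4 and 30.1 CPM in WT and 12.6, 21.5 and 15.7 CPM in Casp1 KO (log2 fold change -0.95, SE 0.22, adjusted p = 0.0138), and the adjusted p was 0.0983, 0.128 and 0.0932 without WT replicate 1, Casp1 KO replicate 1 and Casp1 KO replicate 3. With the spread of all 12 libraries these 2 genes had adjusted p-values of 0.199 and 0.0630. Ermn and Sox10 were tested and did not pass, with log2 fold changes of -0.16 and -0.72. Mog, Opalin and Olig2, which stayed below the filter on low counts, and Cldn11 were at 0 in every library labelled Casp1 KO.

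In the OIR libraries the same 14 genes summed to 72.4 to 88.9 CPM in WT and 65.1 to 76.4 CPM in Casp1 KO. High levels were thus seen in the 3 WT normoxia libraries alone among the 4 groups, and Mobp had 6.12, 1.10 and 1.09 CPM in WT OIR. Whether the amount of optic nerve tissue in the dissected retinas differed was not tested, since no label records it.

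Müller glia, which recycle glutamate and retinoids for the neurons, had a list that leaned one way throughout. Of 18 genes, all of them tested, 6 were called lower, none was called higher and all 18 had fitted values below 0, with a median log2 fold change of -0.29. Over all 13387 genes tested, 0.665% were called lower and 6687 had fitted values below 0. The list summed to 4446 to 4585 CPM in WT and 3391 to 3559 CPM in Casp1 KO. Rlbp1, the retinaldehyde-binding protein of these cells, had 411, 415 and 410 CPM in WT and 272, 295 and 271 CPM in Casp1 KO. It fell by 0.56 on the log2 scale (SE 0.08, adjusted p = 4.47e-06, edgeR), and the groups did not overlap. Glul, glutamine synthetase, had 1068, 1160 and 1169 CPM in WT against 730.5, 865 and 868 CPM (log2 fold change -0.46, SE 0.06, adjusted p = 9.83e-06). Apoe, the lipid carrier, and Clu, clusterin, each fell by 0.45 on the log2 scale, from 662 ± 51.6 to 485 ± 3.16 CPM and from 519 ± 43.4 to 381 ± 19.3 CPM. Dkk3, a secreted protein of the Dickkopf family, and Aqp4, the water channel of glial endfeet, had log2 fold changes of -0.36 and -0.72. The adjusted p of Dkk3 was 0.135, 0.0792 and 0.0561 without WT replicate 3, Casp1 KO replicate 2 and Casp1 KO replicate 3, and that of Aqp4 was 0.0771 and 0.0622 without WT replicate 1 and Casp1 KO replicate 3. Dkk3 and Aqp4 had adjusted p-values of 0.128 and 0.0689 with the spread of all 12 libraries.

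Metallothioneins, which bind zinc and are made by glia under stress, were lower as well. Mt2 had 50.9, 51.4 and 51.8 CPM in WT and 31.1, 27.6 and 34.3 CPM in Casp1 KO (log2 fold change -0.72, SE 0.16, adjusted p = 0.0109, edgeR), a call lost without WT replicate 3 (0.0521) and without Casp1 KO replicate 2 (0.0899). Mt1 fell by 0.53 on the log2 scale (adjusted p = 0.00303). They were the only 2 called of 14 tested genes in the list of glial reactivity, and 1 of 9 astrocyte genes was called, Aqp4. By comparison 1.31% of all genes tested were called.

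Among 20 tested immediate early genes, which neurons and glia switch on within minutes of stimulation, 2 were called and both were lower. Genome-wide, 0.665% of the genes tested were called lower. Egr1, a zinc finger transcription factor, had 127, 126 and 127 CPM in WT and 60.9, 60.6 and 46.3 CPM in Casp1 KO. Its log2 fold change was -1.18 (SE 0.13, adjusted p = 1.88e-08, edgeR), and no library of one group reached the other. Fos, a component of AP-1, had 36.8, 45.3 and 47.3 CPM in WT and 22.01, 9.99 and 26.8 CPM in Casp1 KO (log2 fold change -1.12, SE 0.22, adjusted p = 0.00213), but DESeq2 gave an adjusted p of 0.104. The list as a whole had a median log2 fold change of -0.14, with 14 members below 0 and 6 above.

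Of 23 tested genes of the hypoxia response 3 were called lower, none was called higher, and the median log2 fold change was -0.27. All genes tested had 0.665% called lower and a median of 0.00. Hk2, which commits glucose to glycolysis and is prominent in photoreceptors, went from 215 ± 24.8 CPM in WT to 147 ± 6.02 CPM in Casp1 KO (log2 fold change -0.56, SE 0.10, adjusted p = 0.000355, edgeR). Aldoa, an aldolase of glycolysis, fell by 0.31 on the log2 scale but had an adjusted p of 0.145 with the spread of all 12 libraries, and Mif, a cytokine with a hypoxia-responsive promoter, had a log2 fold change of -0.54. Slc16a3, a lactate exporter that was picked after its values were seen, had 107, 117 and 91.5 CPM in WT and 60.9, 51.7 and 72.9 CPM in Casp1 KO (log2 fold change -0.77, SE 0.13). The whole list summed to 3575 to 3776 CPM in WT and 3054 to 3186 CPM in Casp1 KO.

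Markers of retinal neurons moved in several directions, as the plot of list members shows. Horizontal cells, which pass lateral feedback to photoreceptors, had 2 of 8 tested genes called lower and a median log2 fold change of -0.19. The list summed to 747 to 796 CPM in WT and 570.0 to 591 CPM in Casp1 KO, sums that include the 2 called genes. For this and the bipolar list, the share called lower over all genes tested was 0.665%. Prox1, a homeobox factor of horizontal and other inner retinal cells, had 288, 268 and 258 CPM in WT and 174, 168 and 159 CPM in Casp1 KO (log2 fold change -0.70, SE 0.09, adjusted p = 7.20e-07, edgeR). Calb1, the calcium buffer calbindin, fell by 0.51 on the log2 scale, with an adjusted p of 0.0153 that rose to 0.0547, 0.102, 0.0671 and 0.120 without WT replicates 1 and 3 and Casp1 KO replicates 1 and 2. Bipolar cells carry the photoreceptor signal inward, and 3 of their 17 genes were called lower, with 14 of 17 fitted below 0 and a median of -0.44. Scgn, secretagogin, a calcium sensor of cone bipolar cells, had 79.3, 80.0 and 92.8 CPM in WT against 49.1, 50.3 and 45.4 CPM (log2 fold change -0.80, SE 0.14, adjusted p = 0.000355). The other 2, Lhx4 and Trpm1, had log2 fold changes of -0.68 and -0.33. Lhx4 lost its call without WT replicate 1 (0.0848) and Casp1 KO replicate 1 (0.138), and Trpm1 without WT replicate 3 (0.0742), Casp1 KO replicate 2 (0.0980) and Casp1 KO replicate 3 (0.136). With the spread of all 12 libraries the adjusted p was 0.168 for Calb1, 0.0710 for Lhx4 and 0.279 for Trpm1, and with the replicate number as a block that of Trpm1 was 0.0523.

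Rods, the photoreceptors of dim light, had 4 genes called higher and 2 lower among 22, with a median of -0.01 and nearly equal sums of 72303 to 73719 CPM in WT and 71731 to 73664 CPM in Casp1 KO. Across all genes tested 0.642% were called higher and 0.665% lower. Guca1a, a calcium sensor that activates guanylate cyclase in photoreceptors, stood out. It had 686, 702 and 693 CPM in WT and 401, 386 and 428 CPM in Casp1 KO (log2 fold change -0.78, SE 0.07, adjusted p = 1.40e-10, edgeR). Its locus overlaps other annotated genes, and the strand setting of the counting is not stated. Guca1b, its neighbour and relative, had a log2 fold change of -0.30 and lost its call without WT replicate 3 (0.0734) and Casp1 KO replicate 3 (0.151). Rcvrn, recoverin, rose from 1668 ± 28.5 to 2025 ± 128 CPM, Gnb1, a transducin subunit, from 3406 ± 75.8 to 3988 ± 43.6 CPM, and Nr2e3, a nuclear receptor that keeps rod identity, from 1303 ± 37.6 to 1563 ± 51.6 CPM. The fourth gene called higher was Pde6a, a subunit of the rod phosphodiesterase, at 1403 ± 89.7 CPM in WT and 1642 ± 48.4 CPM in Casp1 KO (adjusted p = 0.0205, edgeR). Its call was lost in 5 of the 6 fits that leave out a library (adjusted p = 0.0515 to 0.145), the exception being WT replicate 2. With the spread estimated from all 12 libraries none of the 4 passed, with adjusted p-values of 0.353 for Rcvrn, 0.308 for Gnb1, 0.278 for Nr2e3 and 0.357 for Pde6a, and Guca1b had 0.190. Tested by likelihood ratio, Gnb1 and Pde6a had adjusted p-values of 0.0981 and 0.140, and the replicate block gave Pde6a 0.0861. Rpgrip1, a scaffold of the connecting cilium that is mutated in Leber congenital amaurosis, was picked after its values were seen and had 494, 541 and 522 CPM in WT and 807, 753 and 753 CPM in Casp1 KO (log2 fold change 0.57, SE 0.07, adjusted p = 1.23e-07). Like that of Guca1a, the Rpgrip1 locus overlaps other annotated genes. Cones had 0 of 13 genes called by edgeR and 0 by DESeq2, with 1 at an unadjusted p under 0.05.

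Retinal ganglion cells send the axons of the optic nerve, and in contrast to the myelin genes their list was higher in Casp1 KO. Of 16 tested genes 4 were called higher, none was lower, 15 had fitted values above 0 and the median log2 fold change was 0.20. Among all 13387 genes tested 0.642% were called higher, 0.665% were called lower and 6700 had fitted values above 0. The list summed to 4072 to 4343 CPM in WT and 4659 to 4967 CPM in Casp1 KO. Stmn2, a tubulin-binding protein of growing axons, had 196, 199 and 201 CPM in WT and 267, 276 and 279 CPM in Casp1 KO (log2 fold change 0.47, SE 0.08, adjusted p = 0.000462, edgeR). Gap43, a protein of growth cones, had 141, 152 and 116 CPM against 215, 185 and 186 CPM (log2 fold change 0.51), with an adjusted p of 0.0659 without WT replicate 3. Tubb3 and Nefh, a neuronal tubulin and the heavy neurofilament, had log2 fold changes of 0.36 and 0.28. Tubb3 kept its call only without WT replicate 1 and Nefh only without WT replicate 2, with adjusted p-values of 0.0681 to 0.188 and 0.0935 to 0.184 in the other 5 fits. Amacrine cells had 1 of 17 genes called, Tfap2b, with a log2 fold change of -0.34 and a call that was lost in 5 of the 6 fits that leave out a library (adjusted p = 0.0575 to 0.199), the exception being Casp1 KO replicate 2. With the spread of all 12 libraries none of these 5 genes passed, with adjusted p-values of 0.0504 for Stmn2, 0.107 for Gap43, 0.238 for Tubb3, 0.386 for Nefh and 0.203 for Tfap2b. The replicate block ended the calls of Tubb3 (0.0700), Nefh (0.0991) and Tfap2b (0.0633).

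**Figure D4:**
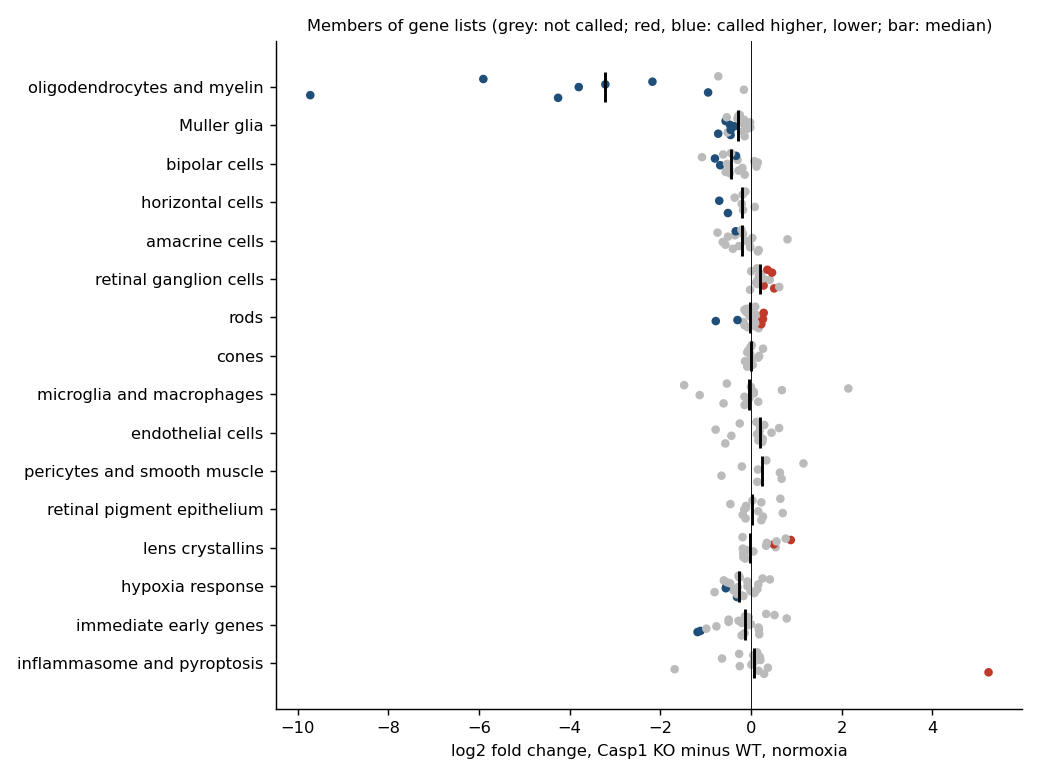
Log2 fold change (Casp1 KO minus WT, normoxia) of the tested members of 16 gene lists. Each point is a gene, red and blue points were called higher and lower, grey points were not called, and the black bar is the median. Myelin genes lie farthest below 0, Müller glia genes all lie below 0, and of the inflammasome genes Casp1 alone was called.

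Long noncoding RNAs made up more of the higher genes than of the genes tested. They were 6.13% of the genes tested, 20.9% of the 86 higher genes (18) and 3.37% of the 89 lower genes (3). The class as a whole was shifted, with a median log2 fold change of 0.20 over all 820 tested. Over the 11711 protein-coding genes tested the median was -0.01. Kcnq1ot1, the imprinted antisense transcript at the Kcnq1 locus (chr7:143213111-143296547), had 133, 127 and 131 CPM in WT and 249, 235 and 252 CPM in Casp1 KO. It rose by 0.92 on the log2 scale (SE 0.09, adjusted p = 2.87e-09, edgeR). Meg3, an imprinted transcript of the Dlk1-Dio3 region, was very even within groups, with 1532, 1534 and 1526 CPM in WT and 2217, 2082 and 2158 CPM in Casp1 KO (log2 fold change 0.49, SE 0.05, adjusted p = 1.11e-08). H19, also an imprinted transcript, had 7.58, 6.13 and 5.20 CPM in WT against 18.9, 19.99 and 17.1 CPM (log2 fold change 1.56, SE 0.30, adjusted p = 0.00136). Mir124a-1hg, the host transcript of a neuronal microRNA, rose by 0.51 on the log2 scale and Snhg11, a host of small nucleolar RNAs, by the same amount. With the spread estimated from all 12 libraries the adjusted p was 0.425 for Meg3, 0.244 for Mir124a-1hg and 0.479 for Snhg11. They kept their calls in each other setting. In WT OIR replicate 3 these genes had 767, 315 and 134 CPM. The values were 2148, 643 and 409 CPM in WT OIR replicate 1 and 2227, 726 and 441 CPM in replicate 2.

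Less well known transcripts changed by more, and for Gm38609, 9330155M09Rik, LOC108167626 and LOC108167997 no position was found in RefSeq. Gm38609 had 17.3, 16.4 and 13.9 CPM in WT and 44.7, 54.1 and 56.97 CPM in Casp1 KO (log2 fold change 1.70, SE 0.19, adjusted p = 4.37e-08, edgeR). 0610039H22Rik, which lies within Msi2, went from 1.79 ± 1.58 to 14.8 ± 3.10 CPM (log2 fold change 2.79, SE 0.45), and 9330155M09Rik from 5.18 ± 0.560 to 18.9 ± 1.90 CPM (log2 fold change 1.85, SE 0.31). Dnm3os, which carries microRNAs and lies within Dnm3, went from 19.2 ± 4.83 to 39.998 ± 2.09 CPM (log2 fold change 1.05, SE 0.20). Without a stated strand setting, reads of Kcnq1ot1, Dnm3os and 0610039H22Rik cannot be told apart from those of the gene around them. The remaining 6 genes that rose by at least 1 and had the smallest p-values were LOC108167626, 1700019L22Rik, Snora30, 4930555F03Rik, LOC108167997 and Cdkl1, with log2 fold changes of 1.01 to 3.06. In 3 of them the call was lost when a library was left out, to 0.0537 for 1700019L22Rik without Casp1 KO replicate 1, to 0.0685 and 0.134 for LOC108167997 without Casp1 KO replicates 1 and 2, and to 0.106, 0.0802 and 0.0849 for Cdkl1 without WT replicate 1 and Casp1 KO replicates 1 and 3. For LOC108167997 the adjusted p was also 0.228 with DESeq2 and 0.0678 with the replicate block. With the spread of all 12 libraries it was 0.0540 for LOC108167997, 0.279 for Snora30 and 0.190 for Cdkl1.

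Outside these groups, Slc17a8, a vesicular glutamate transporter of a class of amacrine cells, went from 15.8 ± 3.98 to 5.78 ± 0.420 CPM (log2 fold change -1.47, SE 0.32, adjusted p = 0.00610, edgeR), and its adjusted p was 0.113 without WT replicate 2. Gm34755 and Ahnak had log2 fold changes of -1.38 and -1.21. Ahnak lost its call without WT replicate 1 (0.0533) and Casp1 KO replicate 3 (0.0778). Lrrc17, a leucine-rich repeat protein and one of the most abundant transcripts, had 5603, 6428 and 6329 CPM in WT and 7395, 8245 and 8638 CPM in Casp1 KO (log2 fold change 0.40, SE 0.05, adjusted p = 1.72e-07, and 0.0538 with the spread of all 12 libraries). The Lrrc17 locus overlaps that of Fbxl13, and the strand setting of the counting is not stated. Drd4, the dopamine receptor of photoreceptors whose transcript follows the daily light cycle, rose from 509 ± 22.4 to 699 ± 32.2 CPM and Rorb, a nuclear receptor of retinal development, from 908 ± 40.2 to 1131 ± 28.9 CPM. With Hlf, a clock-controlled factor that fell from 309.97 ± 16.4 to 232 ± 11.1 CPM, they were the 3 called of 20 tested genes of the circadian list. Over all genes tested 1.31% were called. The circadian list had a median log2 fold change of -0.04, with 14 members fitted below 0 and 6 above. Rorb and Hlf had adjusted p-values of 0.368 and 0.0780 with the spread of all 12 libraries. The hour at which the eyes were taken is not given. Hspa5, the chaperone of the endoplasmic reticulum, fell from 929 ± 31.7 to 703 ± 10.9 CPM, and ND4, a mitochondrial subunit of complex I, rose from 5030 ± 349 to 5983 ± 265 CPM, with an adjusted p of 0.0706 by likelihood ratio and of 0.263 with the spread of all 12 libraries. Of 32 cytosolic ribosomal proteins 3 were called higher, Rplp1, Rplp2 and Rps14, and of 28 chaperones Hspa5 and Calr were called lower, where 1.31% of all genes were called. The ribosomal calls were lost without WT replicate 3 (0.0881, 0.0752 and 0.110) and without Casp1 KO replicate 3 (0.161, 0.113 and 0.154). Rplp1 was also lost without WT replicate 1 (0.0722), and Rps14 without WT replicate 1 (0.292), without Casp1 KO replicate 2 (0.250) and with DESeq2 (0.481). Calr lost its call without WT replicate 3 (0.0928) and Casp1 KO replicate 2 (0.120). With the spread of all 12 libraries the 3 ribosomal genes and Calr had adjusted p-values of 0.335, 0.396, 0.563 and 0.174. The edgeR test called 0 of 30 nuclear-encoded respiratory chain genes, 0 of 20 cholesterol genes and 0 of 22 synaptic release genes. Of these last 3 lists 6, 1 and 6 genes had an unadjusted p under 0.05, and DESeq2 called 0, 0 and 3.

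The other genes of the inflammasome and of pyroptosis were largely near or below the limit of detection. Of 38 listed genes 37 were in the table and 15 were tested, and Casp1 alone was called by edgeR and by DESeq2. The other 14 had log2 fold changes of -1.68 (Il1r1, adjusted p = 0.226) to 0.37 (Il1rap). Pycard, which encodes ASC, had 1.97 CPM in WT and 2.43 CPM in Casp1 KO, and Il18 had 11.5 and 13.1 CPM. Nlrp3 and Gsdmd averaged 0.145 and 0.321 CPM in WT with no read in Casp1 KO, and Il1b had no read in either group, so differences in these genes were not detectable at this depth. Casp4, the neighbour of Casp1, had no read in WT and 0.620 CPM in Casp1 KO. The list summed to 185 to 205 CPM in WT and 194 to 195 CPM in Casp1 KO. Among 15 tested genes of the interferon response and 14 of microglia and macrophages 0 were called by edgeR and 0 by DESeq2, with 1 and 2 at an unadjusted p under 0.05. The microglia list summed to 112 to 113 CPM in WT and 100.2 to 112 CPM in Casp1 KO.

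Vascular lists, which bear on the retinopathy that the study addresses, held no call in normoxia. Of 15 endothelial, 4 tip cell and 8 pericyte genes tested 0 were called by edgeR or DESeq2, and 2, 0 and 2 had an unadjusted p under 0.05. Tissues that can be carried along in dissection gave mixed results. Lens crystallins had 2 of 16 genes called higher, Crygc and Crygf, with sums of 1043 to 1099 CPM in WT and 1149.9 to 1199.7 CPM in Casp1 KO. Genome-wide, 0.642% of the genes tested were called higher. Crygc lost its call without any one of the 6 libraries (adjusted p = 0.0521 to 0.165), with the replicate block (0.0734) and with the spread of all 12 libraries (0.375). Other lens genes had 0 of 6 called by edgeR, 0 at an unadjusted p under 0.05 and 0 by DESeq2. Retinal pigment epithelium had 0 of 13 called by edgeR, with 4 at an unadjusted p under 0.05 and 2 called by DESeq2, and sums of 1009.6 to 1038 CPM in WT and 1127 to 1156 CPM in Casp1 KO. Xist, the RNA that coats the inactive X chromosome of female cells, had 516, 479 and 461 CPM in WT and 350.1, 349 and 339 CPM in Casp1 KO (log2 fold change -0.49, SE 0.07, adjusted p = 2.99e-05, edgeR). The 4 Y chromosome genes tested had fitted values of 0.32 to 0.75 and summed to 83.3 to 97.6 CPM in WT and 110.2 to 133 CPM in Casp1 KO, although 0 were called by edgeR, 1 had an unadjusted p under 0.05 and 0 were called by DESeq2. With the spread estimated from all 12 libraries the adjusted p of Xist was 0.856. In the OIR libraries Xist had 434, 2.93 and 120 CPM in WT and 384, 364 and 399 CPM in Casp1 KO. The Y genes there summed to 124 to 264 CPM in WT and 73.5 to 87.5 CPM in Casp1 KO. All 6 normoxia libraries held reads of Xist and of Y genes. In either condition the share of females in a group cannot be told apart from the genotype, and sex was not a term of the fits.

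The 6 OIR libraries share no library with this comparison and carry the same genotype labels, so the differences could be looked up in them. In OIR 16 of 13435 genes tested (0.119%) were called between the genotypes. Among them was Eif2s3y, a gene of the Y chromosome (log2 fold change -2.08, adjusted p = 0.0405, edgeR). Of the 16 calls 12 were higher in Casp1 KO and 4 lower. The higher ones included the crystallins Crybb1, Crygb, Cryba1, Crygf, Cryab, Cryge and Cryba2. The crystallin list summed to 676 to 1402 CPM in WT OIR and 2063 to 2286 CPM in Casp1 KO OIR. The list of other lens genes summed to 24.1 to 32.1 CPM and 53.2 to 56.0 CPM. Of the 175 genes called in normoxia 170 were tested in OIR, and 72 (42.4%) had the same sign there, beside 47.9% of all genes tested in both. The genes higher in normoxia had a median log2 fold change of 0.51 in normoxia and -0.03 in OIR, and the lower ones of -0.51 and 0.09. WT OIR replicate 3 stands apart from the others. Without it 719 of 13912 genes (5.17%) were called in OIR, and 87 of 171 genes (50.9%) had the same sign as in normoxia, beside 49.7% of all genes tested in both. With all 6 libraries 2 of the 175 were called in OIR with the same sign and 1 with the opposite sign, and without WT OIR replicate 3 these counts were 20 and 25.

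The 2 genes called in both conditions with the same sign were Crygf, a lens crystallin of the gamma family, and Sertad3, a transcriptional cofactor. Sertad3 had 7.93, 6.08 and 8.46 CPM in WT normoxia and 15.3, 15.6 and 17.6 CPM in Casp1 KO normoxia (log2 fold change 1.14, adjusted p = 0.0451, edgeR). In OIR it had 11.998, 10.8 and 12.2 CPM in WT and 26.2, 28.6 and 29.4 CPM in Casp1 KO (log2 fold change 1.26, adjusted p = 0.0403). All 6 libraries labelled Casp1 KO thus lay above all 6 WT libraries. Its call in normoxia did not outlast the loss of any of the 6 libraries (adjusted p = 0.0734 to 0.221), and it was 0.0951 with the replicate block and 0.0531 without a filter. Crygf had log2 fold changes of 0.88 in normoxia and 1.57 in OIR, and in normoxia its adjusted p was 0.145, 0.152, 0.0556 and 0.235 without WT replicates 1 and 3 and Casp1 KO replicates 2 and 3, 0.0636 with the replicate block and 0.190 with the spread of all 12 libraries. Gamma-crystallin genes are close copies, and their reads may be shared between them. Without any one of the 3 Casp1 KO libraries or of WT OIR replicate 2, neither gene was called in OIR, where 0, 0, 0 and 1 genes of the whole table passed.

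Glul was the third gene called in both conditions, with opposite signs. In OIR it had 642, 713 and 762 CPM in WT and 1116, 1075 and 1052 CPM in Casp1 KO, a log2 fold change of 0.61 (adjusted p = 0.0358, edgeR) where normoxia gave -0.46. Egr1 had 67.8, 91.1 and 83.0 CPM in WT OIR and 101, 109 and 106 CPM in Casp1 KO OIR, and here too the order of the groups was the other way round from normoxia, with an adjusted p of 0.357. Kcnq1ot1 had 236, 281 and 144 CPM in WT OIR and 128, 121 and 135 CPM in Casp1 KO OIR (log2 fold change -0.78, adjusted p = 0.153), and without WT OIR replicate 3 the values were -1.01 and 7.20e-07. For Meg3, at 2148, 2227 and 767 CPM in WT OIR and 1124, 1119 and 1022 CPM in Casp1 KO OIR, the log2 fold change was -0.66 (adjusted p = 0.359) and without that library -1.01 (4.34e-10). Lrrc17 was higher in the libraries labelled Casp1 KO of both conditions, with a log2 fold change of 0.57 in OIR (adjusted p = 0.123) and of 0.70 without WT OIR replicate 3 (6.66e-07). Of the called myelin genes Mbp, Mal and Cnp kept the sign of normoxia, with OIR values of -0.31, -0.47 and -0.20, none of which passed the test. Mobp, Mag, Cldn11 and Bcas1 were not tested in OIR. In a fit over all 12 libraries the genotype difference changed with OIR in 139 of 14287 genes (0.973%), among them 58 of the 175. This fit uses the normoxia libraries that chose the 175 and is not independent of them.

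**Figure D5:**
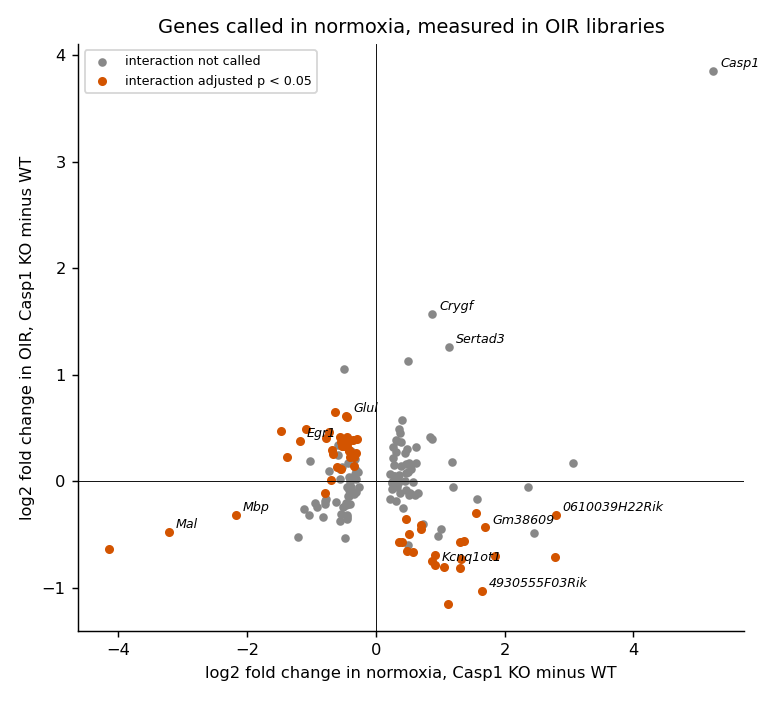
Log2 fold change (Casp1 KO minus WT) in the 6 OIR libraries against that in the 6 normoxia libraries, for the 170 genes called in normoxia and tested in both. Orange points had an interaction adjusted p under 0.05. Casp1, Crygf and Sertad3 are above 0 on both axes, while Kcnq1ot1, Gm38609, Egr1 and Glul have opposite signs.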

How the data were processed

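The authors prepared QuantSeq 3′ FWD libraries from TRIzol RNA and, per the submitters' processing notes, aligned reads with STAR 2.7.5a to mm10 and counted them with HTSeq 0.6.1. Annotation and strand setting are not given in the sources used here. The deposited table holds raw counts per gene symbol for 12 libraries. Groups came from the labels. Counts were fitted in R 4.3.3 with edgeR 4.0.16 (filterByExpr, TMM, glmQLFit, glmQLFTest), with Benjamini-Hochberg adjusted p under 0.05. A minimum of 1 count in place of filterByExpr was an alternative. The script was tested on simulated data. Gene positions came from RefSeq (GRCm38.p6), in which 12654 of the tested symbols (94.5%) were found. Named genes were the 12 higher and 12 lower genes with the smallest p among called genes whose log2 fold change was 1 or more in size and whose groups did not overlap, Casp1, called genes within 10 Mb of it, up to 4 called members each way of a list, and others named as picked after their values were seen: Rpgrip1, Lrrc17, Mir124a-1hg, Slc16a3, Sertad3, Cnp, Bcas1 and Dkk3, and Cartpt, Tubb2b, Neurod4, Glra1, Slc16a1, Tpi1 and Impg2, whose values are not given. The list that holds ND4 was added once the symbols of the table were known. Some genes are not reported here and were left out of the named genes and lists. Members and lists were chosen with earlier results of these data known. Same-numbered libraries did not vary together (correlations -0.09, -0.08 and 0.02). DESeq2 1.42.0 and other settings served as alternatives.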

Additional observations from a re-analysis of the deposited data

Results flagged for a closer look

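For 33 of the named genes the genotype difference changed between normoxia and OIR by a test of the interaction over all 12 libraries (edgeR quasi-likelihood test, adjusted p under 0.05). The values are the log2 fold change in OIR minus that in normoxia, so a positive value for a gene that was lower in Casp1 KO in normoxia marks a difference that shrank or turned. The genes were named from the normoxia libraries, which also enter this test.

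Among myelin genes the values were 1.86 for Mbp, 2.74 for Mal and 8.25 for Cldn11, of which the last rests on counts of 0 and is no measure of size. Genes of Müller glia and of metallothioneins had 1.08 (Glul), 0.98 (Rlbp1), 0.87 (Clu), 0.78 (Apoe), 0.75 (Dkk3), 1.19 (Mt2) and 0.87 (Mt1). Other genes that were lower in normoxia had 1.56 (Egr1), 1.18 (Slc16a3), 0.66 (Mif), 0.70 (Guca1b), 0.72 (Prox1), 0.72 (Hlf), 0.98 (Lhx4), 0.57 (Tfap2b), 0.74 (Spc25), 1.63 (Gm34755) and 1.94 (Slc17a8). Genes that were higher in normoxia had negative values, -1.69 for Kcnq1ot1, -1.14 for Meg3, -1.86 for H19, -1 for Mir124a-1hg, -1.85 for Dnm3os, -1.23 for Rpgrip1, -2.13 for Gm38609, -2.67 for 4930555F03Rik, -3.07 for 0610039H22Rik, -2.54 for 9330155M09Rik, -1.92 for 1700019L22Rik and -1.88 for LOC108167626. Casp1 had an interaction adjusted p of 0.809.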

How the results depend on the processing

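The count of 175 genes was within 1.5 times of its value with other size factors (175), library size alone (181), no filter (233), at least 10 counts per library (190), robust estimation (210), the likelihood ratio test (217) and random thinning of the deepest library, WT normoxia replicate 2, to the total of replicate 1 (199, an alternative chosen after seeing the data). It was 444 with DESeq2, of which 166 were among the 175, 56 with all 12 libraries in one fit, 37 where a log2 fold change of 1 or more in size was also asked for, and 99 to 165 with a library left out. The fit with the replicate number as a block gave 114, all among the 175; the numbers are not known to pair libraries. Calls in OIR (16) were 131 without a filter, 20 with the replicate block and 0 to 719 with a library left out. Interaction calls (139) were 277 without a filter, 136 with the block and 59 to 523 with a library left out. The cause of these changes was not tested. The mean level of Casp1 in Casp1 KO normoxia moved by less than its SD, from 3.27 to 6.14 CPM. Of 81 named genes 31 kept their call in every setting, 50 lost it in at least 1, of which 14 did under the block, 43 with all 12 libraries in one fit and 4 with DESeq2, and 0 changed sign. Depth limits genes under about 1 CPM.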
